A study of Caenorhabditis elegans with 28 samples.

Results

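Wild-type Caenorhabditis elegans larvae were compared with themselves 7 h later. The 14 libraries of the N2 strain, out of 28 in the series, were split by hour into the first cycle (18 to 24 h, 7 libraries) and the second cycle (25 to 31 h, 7 libraries), and each hour was paired with the hour 7 h later, so that 18 h was set against 25 h and 24 h against 31 h. Larvae were hatched without food, plated as synchronised first-stage animals with the OP50 strain of Escherichia coli, kept at 25 °C without treatment, and collected whole, with 1 small RNA library per hour. The other 14 libraries are of HW3527, which carries ebax-1(tm2321) on chromosome IV, sampled at the same hours and used here only where stated. Neither strain carries a transgene by its labels.

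MicroRNAs are short RNAs that guide Argonaute proteins to messenger RNAs and lower their output. A hairpin precursor gives a 5p and a 3p arm, of which the guide is loaded and kept and the passenger is mostly degraded. In worms, lin-4 and let-7 time the larval stages, and many genes are transcribed in pulses that recur with each moult. Hours were paired 7 h apart, the length taken for 1 such cycle at 25 °C, to hold the phase of the cycle and leave the change to the next cycle. Phase was held only approximately, since peaks of some rhythmic arms did not recur after exactly 7 h. For such arms a drift in phase can also appear as a change between the cycles. A steady climb or fall over the 14 h and a step between the cycles both appear as such a change.

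Library totals ran from 4938126 counts at 29 h to 11683557 at 25 h, and the second cycle was the shallower in 5 of 7 pairs. A read was found for 319 to 349 of the 437 annotated arms, and 392 arms had a read in at least 1 wild-type library. Values are normalised read counts, that is, counts divided by the library total and scaled to the mean total of the series. An arm without a read can still have up to 3 counts, which is 2.15 normalised counts in the deepest and 5.08 in the shallowest of these libraries. Hours are single libraries and no replicate cultures are named. The p-values therefore rest on the scatter among 7 paired differences, which limma moderates over all arms. That scatter may be technical and also holds any change along the cycle. Consecutive hours of 1 time course are not independent, and the fits did not model this. The 7 pairs are thus not 7 independent repeats, for p-values or for counts of pairs with 1 sign.

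Between the cycles, limma called 25 of 392 arms higher (6.38%) and 48 lower (12.2%) at an adjusted p under 0.01. The rises were few and large, and the falls were many and shallow. The median difference of all 392 arms was -0.05 on the log2 scale, and among 214 arms whose mean reached 50 in either cycle, 87 differed by less than 0.25. Guide arms made up 11 of the rises and 34 of the falls, passenger arms 11 and 9, and arms annotated alone 3 and 5. These are counts, not shares of the arms tested of each kind. Passenger arms held 1.84% of the reads in the first cycle and 1.59% in the second. Low arms are harder to call on this scale, so the split is not a result about guides. Of the 73 called arms, 69 moved the same way in 7 of 7 pairs. In 17 of the 392 arms (4.34%) all libraries of the second cycle lay above all of the first, and in 21 (5.36%) they all lay below.

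The balance of rises and falls depended on how libraries were scaled. TMM factors, which were 1.02 to 1.10 in the first cycle and 0.877 to 1.01 in the second, moved the median of these 214 arms from -0.12 to 0.05. With them limma called 36 arms higher and 19 lower, keeping 25 of the 25 rises and 19 of the 48 falls. Rises and falls alike are relative to the rest of the miRNA pool, since every value is a share of its library. In whole larvae, moreover, more cells of a type and more RNA per cell cannot be told apart.

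**Figure D1:**
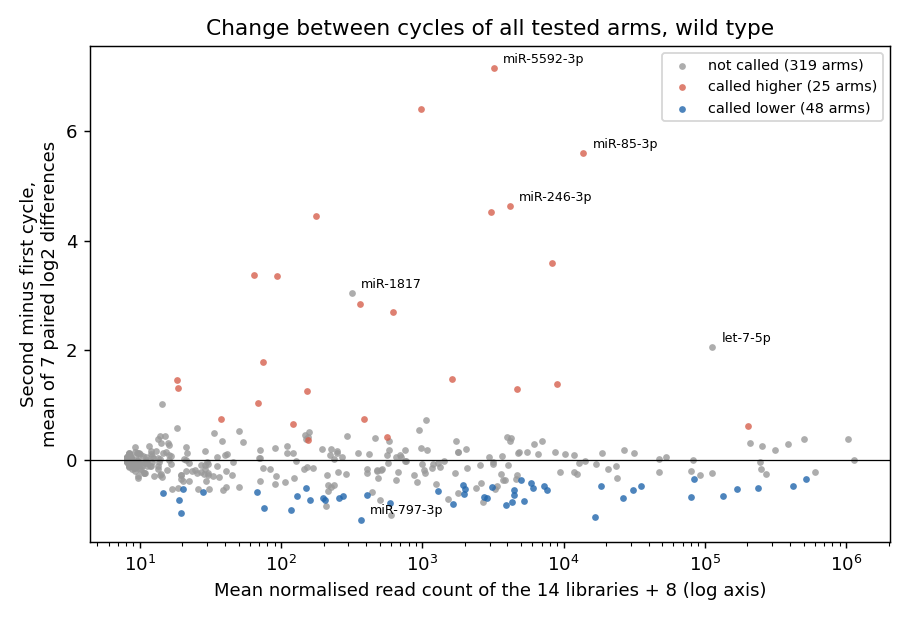
Each of the 392 tested arms is a dot, with the mean normalised read count of the 14 wild-type libraries plus 8 on the horizontal log axis and the mean of the 7 paired log2 differences on the vertical axis. The 25 arms called higher reach 7.14, while the largest fall among the 48 arms called lower is -1.09.

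The steepest rise was that of miR-5592, an arm pair that was close to absent at 18 h and abundant at 31 h. miR-5592-3p had 5.11, 7.28, 14.1, 11.6, 19.9, 99.4 and 382 normalised counts from 18 to 24 h and 1315, 3668, 4651, 5773, 8985, 9806 and 9913 from 25 to 31 h. Every library of the second cycle was above every library of the first, and a slow rise up to 22 h gave way to a steep climb that flattened from 29 h. The paired log2 difference was 7.14 ± 0.42 (SE, n = 7 pairs, limma adjusted p = 1.32e-05). Its passenger miR-5592-5p had a lowest, median and highest count of 0.830, 2.19 and 121 in the first cycle and 346, 1729 and 3650.0 in the second. It rose by 6.40 ± 0.38 without overlap of the cycles.

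miR-357 and miR-358, which are encoded 206 bp apart, climbed in the same hours. miR-357-3p had 165, 129, 165, 138 and 147 normalised counts from 18 to 22 h, 407 and 1071 at 23 and 24 h, and 2400.5 to 8330.0 in the second cycle. miR-358-3p stayed at 7.58 or less up to 23 h, reached 35.4 at 24 h, and then rose from 148 at 25 h to 522 at 31 h. In both arms the climb began at 23 or 24 h, before the end of the first cycle, and the cycles did not overlap. The log2 differences were 4.52 ± 0.29 for miR-357-3p and 4.45 ± 0.27 for miR-358-3p (limma adjusted p = 1.92e-05 and 1.32e-05). The passenger miR-358-5p, with no read at 18, 19, 21 and 22 h, had 19.4 at 24 h and 33.6 to 189 later, a rise of 3.37 ± 0.27. Both hairpins lie on the minus strand of chromosome V, at 8580542 to 8580651 and 8580858 to 8580967 of the WBcel235 build, opposite to an intron of symk-1.

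miR-246, which promotes longevity in adult worms, stayed low up to 22 h and then did not flatten. miR-246-3p had 167, 212, 182, 175, 139, 294 and 637 normalised counts in the first cycle and 1331, 3165, 3749.5, 5293, 8939, 13746 and 20589 in the second. The level thus climbed in each hour after 22 h, and the last library was the highest. The log2 difference was 4.63 ± 0.33 (limma adjusted p = 2.94e-05), and miR-246-5p, its passenger, rose by 3.35 ± 0.25 from a median of 0.894 to a median of 105. The hairpin is intergenic on chromosome IV (10940134 to 10940230).

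miR-85-3p became one of the more abundant arms. It had 29.9, 28.1, 107, 534, 1195, 2227 and 3287 normalised counts from 18 to 24 h and 4662, 7631, 10088, 14871, 23784, 47925 and 76953 from 25 to 31 h. Unlike miR-357-3p and miR-246-3p it had already climbed from 20 h, and it was still rising at 31 h. The log2 difference was 5.60 ± 0.45 (limma adjusted p = 4.46e-05) and was largest, at 7.73, between 19 and 26 h. Its passenger miR-85-5p had no read in 6 of 7 first-cycle libraries and 0.715 to 31.0 normalised counts in the second cycle, and did not pass (log2 difference 1.02 ± 0.28, limma adjusted p = 0.0252). The edgeR and DESeq2 tests on the counts called it higher (adjusted p = 7.65e-05 and 4.56e-06). The hairpin lies on chromosome II (8393553 to 8393658) opposite to an intron of F49E12.8.

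miR-59-3p rose from a higher base and levelled off. Its counts were 789, 618, 653, 897, 1163, 2309 and 3553 in the first cycle and 5673, 10892, 13749, 18069.5, 18885, 19042 and 19089 in the second. The cycles did not overlap, and the last 4 libraries were nearly level. The log2 difference was 3.59 ± 0.26 (limma adjusted p = 2.94e-05). The hairpin is intergenic on chromosome IV (11309154 to 11309253).

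miR-240 and miR-786, encoded 32 bp apart on chromosome X and required for the normal defecation rhythm, rose with all 4 of their arms. miR-786-3p went from a lowest, median and highest count of 13.9, 78.6 and 217 to 312, 428 and 1019, without overlap, and its log2 difference was 2.84 ± 0.24 (limma adjusted p = 4.46e-05). miR-240-3p went from 23.4, 164 and 423 to 448, 719.5 and 1877, also without overlap (2.70 ± 0.22). The more abundant miR-240-5p had 258 to 1531 in the first cycle and 964 to 3091 in the second, so its cycles overlapped, and it rose by 1.48 ± 0.16. For miR-786-5p, with a rise of 1.78 ± 0.17, the cycles overlapped as well. All 4 arms were already climbing between 18 and 22 h, in contrast to miR-357-3p, miR-358-3p and miR-246-3p. Without the replicate block the call of miR-240-5p was lost, and with hours 6 h apart that of miR-786-5p.

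**Figure D2:**
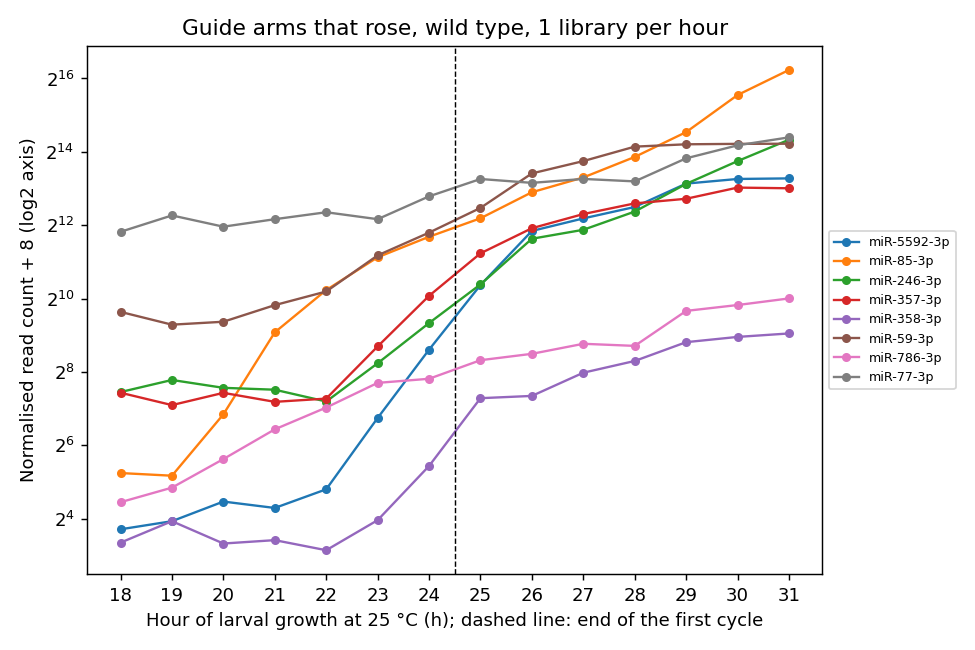
Normalised read count plus 8 (log2 axis) of 8 guide arms that rose, by hour, with 1 wild-type library per point and a dashed line after 24 h. miR-357-3p, miR-358-3p and miR-246-3p stayed low up to 22 h and miR-5592-3p rose only slowly, whereas miR-85-3p and miR-786-3p were climbing by 20 h. miR-77-3p rose at 24 and 25 h, was nearly level up to 28 h and rose again from 29 h.

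Together the 10 largest rises took 0.0393% ± 0.0374 of the reads in the first cycle and 0.778% ± 0.527 in the second (SD, n = 7 hours). They were chosen on this contrast, so that this is a description. Leaving out any 1 pair of hours kept all 10 calls, and the difference of miR-5592-3p then lay between 6.94 and 7.56. Differences are on the log2(normalised count + 8) scale, which understates the change of arms near 0. The ratio of the mean counts of miR-358-3p was 39.8, against a fold of 21.9 on that scale.

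The remaining rises were smaller, and some belonged to abundant arms. miR-77-3p rose by 1.39 ± 0.13, from 3608 to 7059.7 normalised counts in the first cycle to 9110.0 to 21533 in the second, and its passenger miR-77-5p by 1.29 ± 0.13. miR-359 had 51.1 to 98.5 normalised counts in the first cycle and 135, 111, 106, 140.4, 223, 252 and 534 from 25 to 31 h (1.26 ± 0.22, limma adjusted p = 0.00314). Its cycles did not overlap, but its call held in 3 of 7 fits that each left out 1 pair of hours and was lost with hours 8 h apart. miR-785-3p, encoded 267 bp from it on chromosome X, had a difference of 0.18 ± 0.12 (limma adjusted p = 0.301), with 499 to 793 normalised counts in the first cycle and 570.3 to 1029 in the second.

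The late-rising list of mir-85, mir-246, mir-357, mir-358 and mir-359 had 5 of 5 guide or single arms and 3 of 4 passenger arms higher, with a guide median of 4.52 against -0.05 for all arms and 6.38% of all arms called higher. The list was chosen on these samples and is no independent evidence of its direction. By position, 109 pairs of hairpins lay within 10000 bp on 1 strand, of 222 placed hairpins. In 5 of them both leading arms were called, each time in the same direction, and in 22 only 1 was called. The median absolute difference between such neighbours was 0.27. Many of these pairs share a hairpin, some arms have few reads, and hairpins further apart were not compared. These counts therefore do not show whether neighbours agree more than other hairpins.

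**Figure D3:**
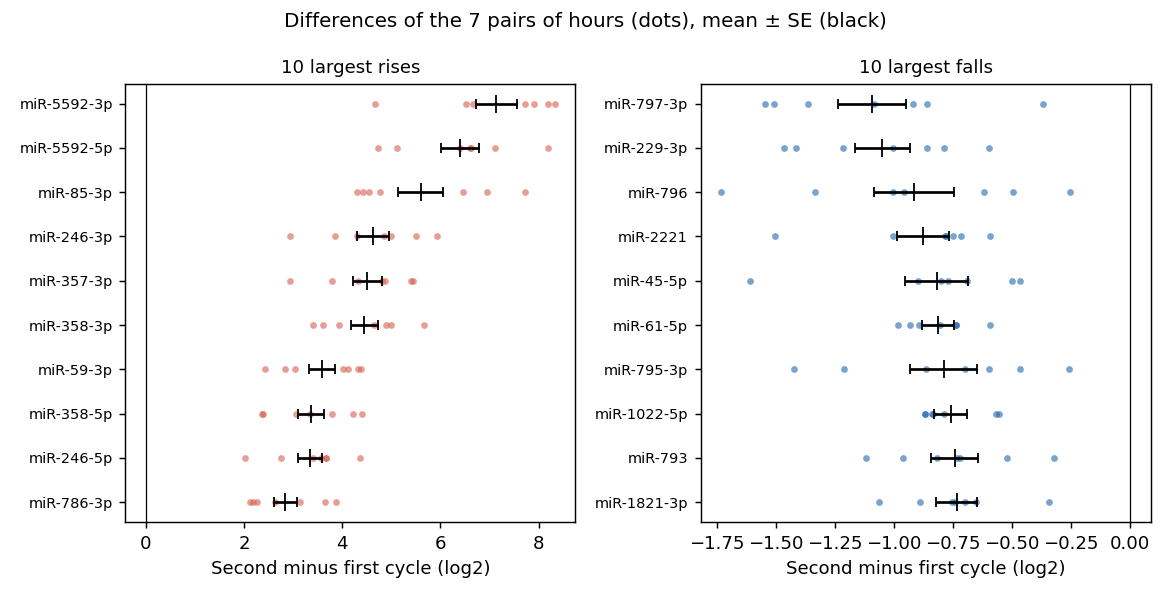
Second minus first cycle on the log2 scale for the 10 largest rises (left) and the 10 largest falls (right), with 1 dot per pair of hours and the mean ± SE in black. No dot of these 20 arms lies on the other side of 0, and the 2 panels have different scales.

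The falls were led by arms that lost about as much as they kept. miR-797-3p had 892, 543, 542, 533, 483, 158 and 333 normalised counts in the first cycle and 299.7, 296, 283, 202, 223, 121 and 112 in the second. It fell in every pair, but the library of 23 h overlapped the second cycle. The log2 difference was -1.09 ± 0.14 (limma adjusted p = 0.000682), which is 53.1% lower.

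miR-229-3p, the passenger arm of a hairpin in an intron of gcn-1 (chromosome III, 2172452 to 2172566), was the most abundant of the 10 largest falls. It had 15158 to 31951 normalised counts in the first cycle, with a median of 20629, and 7064 to 13648 in the second, with a median of 11963. The cycles did not overlap, and the lowest value was at 29 h. The difference was -1.05 ± 0.12 (limma adjusted p = 0.000257), whereas the guide miR-229-5p had 46679 to 57372 and 48415 to 61985 and differed by 0.06 ± 0.07 (limma adjusted p = 0.628).

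miR-61, which acts in vulval precursor cells downstream of LIN-12, was lower in both arms. miR-61-5p had 2555, 2359.8, 2509, 2011, 2072, 1739.6 and 1555 normalised counts in the first cycle and 1334, 1412, 1344, 1012, 1181, 1040.4 and 1028 in the second. Its decline ran through both cycles without overlap (-0.81 ± 0.07, limma adjusted p = 4.46e-05). The abundant guide miR-61-3p stayed between 186502 and 208884 in the first cycle and then dropped in each hour from 178794 at 25 h to 107175 at 31 h. Its difference of -0.53 ± 0.09 passed (limma adjusted p = 0.00252) but did not with TMM factors (-0.35, limma adjusted p = 0.0207).

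miR-1022-5p had an even fall, with a lower value in 7 of 7 pairs and without overlap of the cycles. Its counts dropped in each hour, from 6786 at 18 h to 4051 at 24 h and from 3785 at 25 h to 2754 at 31 h, and it fell by 0.76 ± 0.07 (limma adjusted p = 7.39e-05). miR-45-5p was lower in each pair (-0.82 ± 0.13) within a swing of both cycles, from 7403 at 20 h to 2025 at 23 h and from 4591 at 26 h to 735 at 31 h. Without the pairing of hours, the replicate block, its call was lost (limma adjusted p = 0.220), as was that of miR-797-3p (0.0279). With hours 6 h apart the difference of miR-45-5p was -0.46 and that of miR-797-3p -0.79, and neither passed (limma adjusted p = 0.114 and 0.0505). At 8 h apart the call of miR-45-5p was lost as well (-1.05, limma adjusted p = 0.0123).

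Of the other 5 arms among the 10 largest falls, miR-2221 fell by 0.88 ± 0.11, miR-793 by 0.74 ± 0.10 and miR-1821-3p by 0.73 ± 0.09. With hours 6 h apart miR-793 no longer passed (-0.63, limma adjusted p = 0.0106). TMM factors ended the calls of miR-796 (-0.91 ± 0.17, then limma adjusted p = 0.0115) and miR-795-3p (-0.79 ± 0.14, then 0.0195). The call of miR-796 held in 1 of 7 fits that each left out 1 pair of hours, and that of miR-795-3p in 3. Summed over the 48 called falls, the share of reads was 25.8% ± 2.23 in the first cycle and 18.5% ± 1.57 in the second, which describes the choice of these arms.

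Among the 10 most abundant arms, limma called no rise and 2 falls. miR-72-5p fell from 486162 to 637354 normalised counts in the first cycle to 398059.8 to 498991 in the second (-0.36 ± 0.06, limma adjusted p = 0.00333). miR-57-5p, a posteriorly expressed miRNA, fell from 399398 to 566239.6 to 309159 to 369845 (-0.48 ± 0.07, limma adjusted p = 0.000804). TMM factors ended both calls (limma adjusted p = 0.0566 and 0.0186), although miR-57-5p showed no overlap between the cycles.

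The most abundant arm, miR-58a-3p of the bantam-related family, differed by 0.0049 ± 0.06, with 955827 to 1355464 normalised counts in the first cycle and 966009 to 1299233 in the second. Its family members miR-81-3p and miR-82-3p were higher by 0.38 ± 0.10 and 0.37 ± 0.09 and did not pass (limma adjusted p = 0.0245 and 0.0138), but both passed with TMM factors, at 0.55 each. The same held for miR-65-5p (0.26 ± 0.09, and 0.43 with TMM factors). miR-70-3p (0.29), miR-64-5p (0.18), miR-44-3p (-0.27) and the muscle miRNA miR-1-3p (-0.22) passed in neither, but edgeR called miR-70-3p and miR-64-5p higher. The 10 most abundant arms of each library took 65.5% ± 0.699 of the reads in the first cycle and 67.2% ± 1.37 in the second, higher in 6 of 7 pairs (exact paired permutation test, two-sided, p = 0.046875, where the smallest possible p is 0.015625).

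Beside 6.38% of all arms called higher and 12.2% called lower, the families known for timing larval development had calls in both directions. Among 211 arms that averaged at least 50 normalised counts, limma called 24 higher and 47 lower. In the let-7 family limma called 2 of 7 guide or single arms lower, miR-793 and miR-795-5p (-0.48 ± 0.08), with a median of -0.19, and 1 of 6 passenger arms lower. By level here miR-241-3p counted as a guide, whereas the study lists the 5p arm (-0.15, not called). With TMM factors miR-795-5p no longer passed (limma adjusted p = 0.0238). For let-7-5p itself the difference was 2.06 ± 0.65 (limma adjusted p = 0.0445, not called). DESeq2 called it higher (adjusted p = 0.00751), as did the model of a linear trend with a 7 h rhythm, whereas edgeR did not (adjusted p = 0.0254). Of the lin-4 relatives, miR-237-5p rose by 0.62 ± 0.08 (limma adjusted p = 0.000505) and lin-4-5p had a difference of -0.08 ± 0.09. miR-237-5p stepped up from 141757 to 216739 normalised counts between 21 and 22 h and from 177697 to 336617 between 28 and 29 h, so that the cycles overlapped while each pair was higher. Its call was lost without the replicate block and with hours 6 h apart.

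Several other families had falls, to be read beside the 12.2% of all arms that limma called lower and their median of -0.05. Among arms that averaged at least 50 normalised counts over the 14 libraries, 47 of 211 were called lower, with a median of -0.12. Most of these family arms are well counted, so that share is the closer background. Among mir-44 relatives, 1 of 4 guide arms (miR-61-3p) and 2 of 4 passenger arms were lower, with medians of -0.40 and -0.79. In the mir-2 family these were 2 of 4 (miR-2-3p and miR-797-3p) and 1 of 4 (miR-2-5p), with medians of -0.58 and -0.64. For mir-43 the guide by level here was the 5p arm, whereas the study lists the 3p arm (-0.59, not called). In the mir-72 family limma called 2 of 3 guide arms lower (miR-72-5p and miR-74-3p, list median -0.36). In the mir-51 family it called 1 of 6 (miR-55-3p, list median -0.30). Of 4 hairpins listed as mirtrons, which are spliced introns, it called miR-1018. The WBcel235 annotation, however, places mir-1018 as intergenic, and mir-62, mir-1019 and mir-1020 in introns. With TMM factors the calls of miR-55-3p, miR-61-3p, miR-2-3p, miR-2-5p, miR-72-5p, miR-74-3p and miR-1018 were lost. The counts of miR-44-3p are not independent of those of miR-45-3p, since reads can map to several arms. Both differed by -0.27 and were nearly equal in each pair. They are thus close to 1 measurement, although counted here as 2 of the 4 guide arms of mir-44 relatives.

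For guide arms of 4 further lists limma made no call, but other tests did. In the mir-35 family, needed in embryos and linked by the study to EBAX-1 in larvae, limma called 0 of 8 guide arms (median 0.21). Of its passenger arms limma called 0 of 8 (-0.20). edgeR and DESeq2 called miR-38-3p higher (adjusted p = 0.00598 and 0.00161). By level here miR-41-5p (-0.46) and miR-42-5p counted as guides, whereas the study lists the 3p arms (0.39 and 0.09). miR-42-5p, of the mir-42 cluster, did not pass in limma (adjusted p = 0.0242), and DESeq2 called it lower (-0.90, adjusted p = 0.00229). In the mir-58 list as tested, limma called 0 of 5 guide arms and 1 of 5 passenger arms higher, miR-82-5p (1.04 ± 0.15). The call of miR-82-5p was lost with hours 6 or 8 h apart. miR-58c, a family member by name, was missing from the tested list and was called higher by limma (0.74). Its call was lost without the replicate block and with hours 8 h apart. TMM factors, edgeR and DESeq2 called the guides miR-81-3p and miR-82-3p higher. Of 5 guide arms of the mir-63/64 family limma called 0, and edgeR called miR-64-5p and miR-65-5p higher (adjusted p = 0.00897 and 0.00446).

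Markers of cell types were present in every library. Of 3 neuronal guide arms 2 fell, beside 12.2% of all arms and 47 of 211 arms that averaged at least 50 normalised counts. These were lsy-6-3p, which sets the left and right identity of a taste neuron, by 0.73 ± 0.09 and miR-791-5p, of carbon dioxide sensing neurons, by 0.70 ± 0.11. lsy-6-3p had 172 to 211 normalised counts in the first cycle and 85.1 to 161 in the second, without overlap, and miR-791-5p had 188 to 308 and 114 to 198, with overlap. miR-124-3p, of sensory neurons, had a difference of -0.21 ± 0.10 (limma adjusted p = 0.166). The summed level of the 3 guide arms was 786 to 1125 in the first cycle and 548 to 913 in the second.

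The glial miR-228-5p fell from 81572 to 116577 normalised counts to 48478 to 76116, without overlap (-0.67 ± 0.08, limma adjusted p = 0.000317). The intestinal miR-60-3p (0.14 ± 0.18) and the muscle miR-1-3p did not pass in limma. Neither did the 4 more abundant arms of the epidermal list (let-7-5p, miR-48-5p, miR-84-5p and miR-241-3p), nor miR-241-5p. miR-48-5p, with a difference of 0.31, was called higher by edgeR and DESeq2 (adjusted p = 0.00549 and 0.00921). The part of tissue proportions in these changes was not tested. Of miR-235-3p, miR-71-5p, miR-788-3p and miR-247-3p, the more abundant arms of 4 hairpins that the study links to EBAX-1, limma called none. miR-788-5p was not called either (-0.71 ± 0.33, limma adjusted p = 0.145), but its fall lay mostly in the last hours. Its paired differences were -0.61 to 0.46 up to 22 and 29 h, -1.73 at 23 and 30 h and -2.42 at 24 and 31 h. miR-247-3p differed by -2.24 at 24 and 31 h and by -0.69 to 0.49 in the other pairs. For miR-788-3p the largest fall came earlier, with -1.18 at 22 and 29 h. The change along the cycle was called for none of these arms.

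For both strongly rhythmic arms of that list, the pairs differed in both directions. miR-235-3p, which holds progenitor cells quiescent in starved larvae, swung from 172382 normalised counts at 19 h to 18141 at 22 h and from 145884 at 25 h to 25829 at 29 h. Its difference between the cycles was -0.0039 ± 0.20, with pairs from -0.68 to 0.95, 3 of them higher and 4 lower. miR-71-5p, a longevity miRNA, peaked at 460776 at 20 h and 378997 at 28 h and had a difference of -0.17 ± 0.15 (limma adjusted p = 0.448), with pairs from -1.01 at 24 and 31 h to 0.36 at 23 and 30 h.

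The difference between the cycles changed along the cycle in 1 of 392 arms (0.255%), with 58 arms at an unadjusted p under 0.05. miR-1817 had 8.04 to 32 normalised counts in the first cycle and 32.2, 34.4, 59.4, 127, 388, 1229 and 2342 from 25 to 31 h. Its cycles did not overlap, although the libraries of 23 and 25 h were nearly equal, and the paired difference was 0.54, 0.28, 1.54, 3.07, 4.53, 4.95 and 6.38 from the first pair to the last. The slope of the difference was 1.07 ± 0.08 log2 units per h (limma adjusted p = 0.000645), and this call was lost without the pair of 23 and 30 h or that of 24 and 31 h. The mean difference of 3.04 ± 0.75 did not pass (limma adjusted p = 0.0162) but passed in the edgeR and DESeq2 tests (adjusted p = 0.00403 and 3.49e-05). The hairpin is intergenic on chromosome I (10869370 to 10869474).

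let-7-5p showed the opposite course. It had 5279.9, 4607, 14433, 64543, 105359, 169637 and 163177 normalised counts in the first cycle and 125479.7, 124068, 119649, 133479.7, 128927, 179186 and 247287 in the second. It climbed from 19 to 23 h, fell back by 27 h and climbed again to its highest value at 31 h, and the difference shrank along the cycle by 0.86 ± 0.14 per h (limma adjusted p = 0.0327, not called at 0.01). Its passenger let-7-3p rose and fell in each cycle, with peaks of 2987 at 22 h and 2331 at 30 h.

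**Figure D4:**
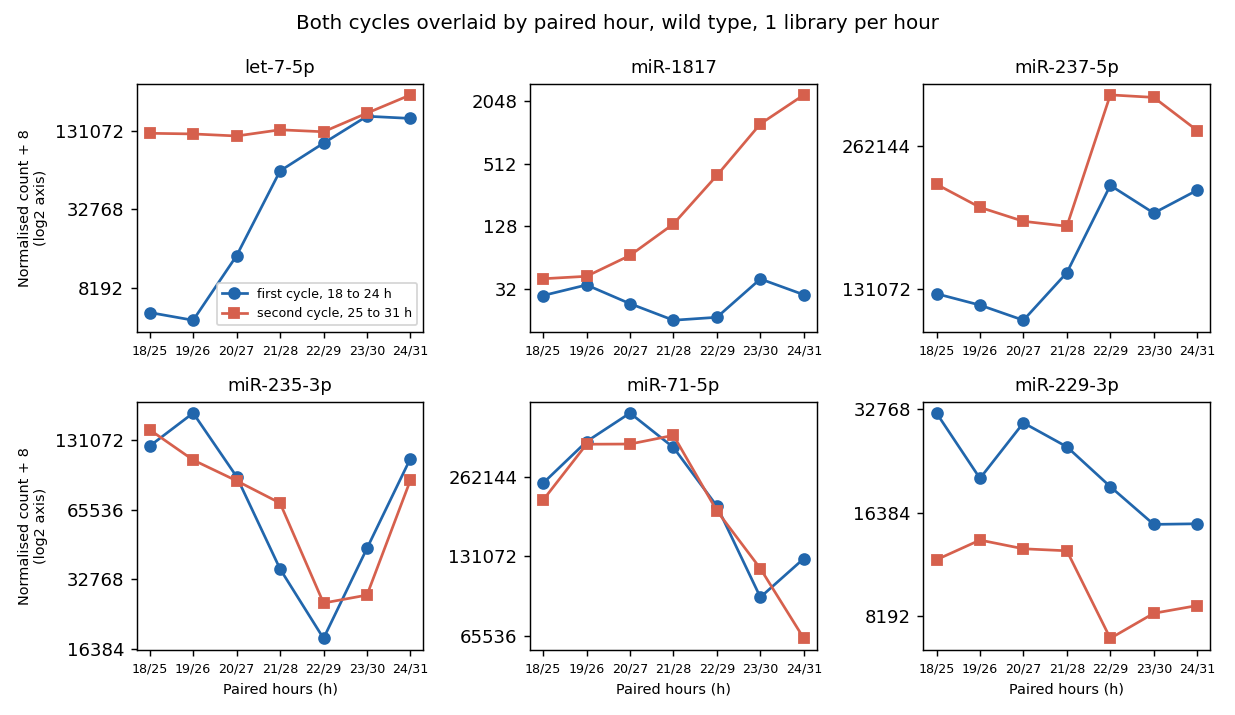
Normalised read count plus 8 (log2 axis) of 6 arms, with the first cycle (blue circles) and the second cycle (red squares) overlaid by paired hour, 1 wild-type library per point. The cycles converge for let-7-5p, diverge for miR-1817, run apart for miR-237-5p and miR-229-3p, and cross for miR-235-3p and miR-71-5p.

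Guide and passenger arms of a hairpin were called on opposite sides in 0 hairpins by limma, but often only 1 arm was called. Both arms were called higher in 8 hairpins and lower in 7. Beside these counts, 11 guides and 11 passengers were called higher, and 34 guides and 9 passengers lower. Of 98 hairpins with both arms at a mean of at least 10, the guide to passenger ratio rose in 6 (6.12%) and fell in 2 (2.04%), with 25 hairpins at an unadjusted p under 0.05. Both calls that also held with a pseudocount of 1 came from well-counted arms. In mir-229 the mean guide count was 2.32 times the mean passenger count in the first cycle and 5.06 times in the second, a log2 change of 1.10 ± 0.17 (limma adjusted p = 0.000484). In mir-240 it fell from 4.79 to 2.22 times (-1.22 ± 0.18, limma adjusted p = 0.000319), since the passenger rose more than the guide.

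In mir-42 the 5p arm, which was the more abundant in these libraries, lost ground to the 3p arm (-1.09 ± 0.22), and in mir-37 the ratio rose by 0.81 ± 0.18. Both missed the threshold with a pseudocount of 1 (limma adjusted p = 0.0278 and 0.0296). The calls of mir-357, mir-59, mir-246 and mir-358 rest on passengers near 0 in the first cycle, where the pseudocount of 8 compresses the passenger's rise. mir-59 shows this most plainly: its ratio rose by 2.13 ± 0.24 with a pseudocount of 8 and by 0.28 ± 0.40 with 1, while the ratio of mean counts fell from 983 to 778. For mir-246 the change was 1.28 with 8 and -0.33 with 1, for mir-358 it was 1.09 and 0.23, and for mir-357 it was 3.21 and 1.72 (limma adjusted p = 0.0296 with 1).

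**Figure D5:**
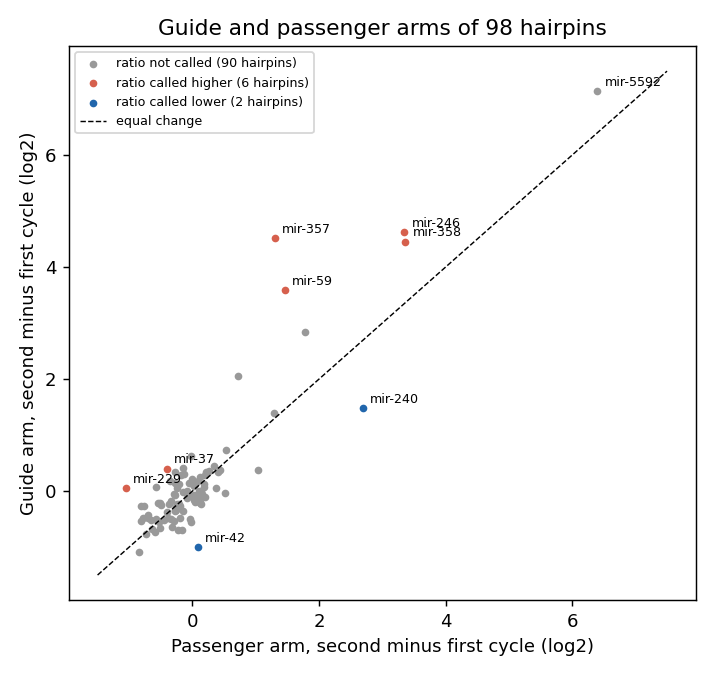
Change of the guide arm (vertical) against that of the passenger arm (horizontal) from the first to the second cycle, in log2(normalised count + 8), for 98 hairpins, with a dashed line of equal change. The 8 called hairpins are coloured and named, 6 above and 2 below the line, and mir-5592, not called, lies near it at the top right.

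In the ebax-1 mutant, limma called 18 of 391 arms higher and 22 lower between the same clock hours. Of these, 14 rises and 18 falls were also called in wild type, and 0 arms had opposite calls. The change itself differed between the strains in 0 of 406 arms (0%) by limma, with 58 at an unadjusted p under 0.05. With TMM factors or DESeq2 size factors limma called 2, miR-38-3p and miR-39-3p of the mir-35 family, which the study links to EBAX-1. miR-38-3p differed by 0.55 between cycles in wild type and by -0.52 in the mutant, a difference of -1.06 ± 0.21 with the library total (limma adjusted p = 0.0295). For miR-246-3p the rise of 4.63 in wild type stood beside 1.90 in the mutant (-2.73 ± 0.58, limma adjusted p = 0.0316), and with the mutant read 3 h later the difference was -1.25 (limma adjusted p = 0.395). The mutant develops late, so at equal clock hours strain and delay cannot be told apart. At the 3 h lag, which leaves 4 pairs per strain, limma called 0 arms, and miR-38-3p differed by -1.43 (adjusted p = 0.0604).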

How the data were processed

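The deposited count table holds whole-number counts of reads per mature miRNA arm. According to the study's methods, the authors trimmed adapters, aligned reads with Bowtie through QuasR to ce10, and counted reads of the same strand that began within 3 bp of the 5′ end of a miRBase 22 arm, with libraries kept apart (Bowtie and ce10 also stand in the submitters' processing notes). The deposited log2 table holds the same counts after division by library size, scaling to the mean total and a log2 transform with a pseudocount of 8, all done by the authors. Recomputation gave its values within 5e-04. Reads can map to several arms, so near-identical arms share counts.

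limma 3.58.1 in R 4.3.3 was fitted to the deposited log2 values of the 14 wild-type libraries, with the pair of hours as a block and cycle as the term tested (8 coefficients, 6 residual degrees of freedom). Tested were 392 arms, those with any wild-type read, with Benjamini-Hochberg adjustment and a threshold of 0.01. The pairing is by hour from the labels and by the 7 h period, not by shared cultures. Further limma fits added the change along the cycle (9 coefficients, 5 residual degrees of freedom), used the guide to passenger log2 ratio, or used all 28 libraries with cycle by strain (16 coefficients, 12 residual degrees of freedom). The guide is the arm with the higher mean in these libraries. For some hairpins, among them mir-41, mir-42, mir-43 and mir-241, the study lists the other arm as the guide. Single sums were compared with an exact two-sided permutation test of the 7 pairs.

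Named arms are members of the miRNA lists (families, clusters, mirtrons, late-rising, EBAX-1 linked, tissue markers), the 10 largest called rises and falls whose mean reached 50 in either cycle and that had 1 sign in 7 pairs, the 10 most abundant arms, arms called along the cycle, the hairpins with the largest called ratio changes, and arms called between strains. Arms outside this rule were chosen after their values were seen: miR-240, miR-77, miR-785-3p, miR-786-5p, miR-58c and the arms named for depending on a setting or on the strain. Members, lists and rules were chosen with earlier results of these data known. Alternatives used TMM factors and the quasi-likelihood test of edgeR 4.0.16, size factors and the Wald test of DESeq2 1.42.0, a pseudocount of 1 or 32, a minimum mean of 10 or 50, unpaired hours, a linear trend with a 7 h rhythm, hours 6 and 8 h apart, an intensity trend, a threshold of 0.05, and each pair left out in turn. Hairpin positions are from the WBcel235 annotation, not from the authors' ce10. The fits were tested on simulated counts drawn independently for each library, which cannot check the dependence of consecutive hours.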

Additional observations from a re-analysis of the deposited data

Results flagged for a closer look

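In 64 groups of 7 hours tested for a value far from the rest, 3 stood out, where chance alone marks about 1 in 20. Both arms of miR-358 stood apart at 24 h among the hours of the first cycle: miR-358-3p had 35.4 normalised counts there against 7.58 in the next highest library, and miR-358-5p had 19.4 against 2.53. For miR-44-3p the library of 19 h stood out, with 402089 normalised counts against 297885 in the next highest hour of the first cycle.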

How the results depend on the processing

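With TMM factors the falls numbered 19 and the strain differences 2, and with DESeq2 size factors 29 and 2. The edgeR quasi-likelihood test gave 41 rises and 18 falls and the DESeq2 Wald test 39 and 31. All 25 rises were kept in each of these 4 settings, and 19, 29, 18 and 30 of the 48 falls. All 4 moved the median of the 214 arms in the direction of the rises, from -0.12 to between -0.0092 and 0.05. Other settings lost rises. Of the 25, a pseudocount of 1 kept 20, hours 6 h apart 19 and hours 8 h apart 18. Without the pair of 23 and 30 h 17 were kept. A pseudocount of 1 left 2 ratio calls, 1 higher and 1 lower, and a minimum mean of 50 gave 4 arms that changed along the cycle. Without the replicate block, that is with unpaired hours, 25 arms rose and 40 fell, and 21 and 38 of the paired calls were among them. Hours 6 h apart, in 6 pairs, gave 40 calls, 21 of them falls. At a threshold of 0.05 there were 116 calls (40 rises and 76 falls), 12 along the cycle, 18 ratio calls (12 and 6) and 13 strain differences. miR-58a-3p, at 0.0049, turned to -0.000461 with the trend model and -0.027 with hours 6 h apart, and ran from -0.0165 to 0.0252 with pairs left out. Leaving out each pair gave 49 to 64 calls, 17 to 26 rises, 30 to 42 falls, 0 to 3 arms along the cycle, 7 to 11 ratio calls (5 to 8 higher, 1 to 4 lower) and 0 strain differences. The falls were fewest (30) without the pair of 20 and 27 h or that of 21 and 28 h. The cause of these differences between settings was not tested. The shallowest library, of 29 h, limits rare arms most, and without the pair of 22 and 29 h limma called 21 rises and 39 falls.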
